A study of Mus musculus with 4 samples.

Results

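The comparison described here sets 96 h against 48 h of oncogene withdrawal in a mouse acute myeloid leukaemia, using 2 of the 4 RNA sequencing libraries of the series. Members were chosen by the hours without the oncogene alone: the 48 h off library and the 96 h off library. The 72 h off library was used to show the path between them, and the library with the oncogene on is given as a level only. The leukaemia in all 4 libraries had the genotype NRASG12V/Mll-AF9 and was grown by tail vein injection in SCID/Beige mice, which lack functional B and T cells and have impaired natural killer cells. Mice were left until leukaemia was advanced, and doxycycline was then given by intraperitoneal injection and in the drinking water to switch NRASG12V off. Every off library therefore carried the same fusion, the same host strain and the same drug, and differed from the others in time on doxycycline. The sources used here give neither the tissue taken, nor the age of the mice, nor which animal each library came from. They name no control given doxycycline with NRASG12V still on. Each time held 1 library, so no difference below has a replicate check and none carries a p-value.

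NRAS is a small GTPase that passes growth signals to the RAF, MEK and ERK kinases, and the G12V form stays in its active state. MLL-AF9 is a fusion of a histone methyltransferase with a partner of the transcription elongation machinery, and it holds on HOX and MEIS genes in myeloid leukaemia. Marrow and spleen also hold normal red cell precursors, granulocytes and macrophages, whose transcripts a bulk sample reads together with those of the leukaemia. Fewer cells of a type and less RNA per cell cannot be told apart in such samples.

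Levels are FPKM, fragments scaled by transcript length and by sequencing depth, on a scale common to the tables. Change was log2((96 h FPKM + 1)/(48 h FPKM + 1)), a scale on which differences of low genes come out too small. A row was counted as higher or lower when it differed at least 2-fold, among 11602 rows with at least 1 FPKM at 48 h or 96 h. Just inside the 1 FPKM minimum was Mitf, at 0.935 FPKM at 48 h and 1.0002 FPKM at 96 h, and just outside was Gm15471, at 0.9999 and 0.343 FPKM. The depth of each library is unknown, because FPKM carry no totals, and no counting interval can be given. From the steps in the lowest values, 1 read was worth 0.967 times as much FPKM at 96 h as at 48 h, and 1.10 times as much at 72 h. Of the defining white cell markers, Ptprc (CD45) was at 97.3, 91.1 and 62.2 FPKM in order of time, the order used for all triplets of values below. Of 18 hepatocyte markers, 10 were listed at 0 in every off library and 3 were tested, with a median change of -0.20.

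The 2 libraries were close to each other. At 96 h, 74 rows were at least 2-fold higher (0.638% of those tested) and 57 were at least 2-fold lower (0.491%). Of these 131 rows, 44 were microRNA or small nucleolar RNA rows, which are shorter than a usual library fragment. Without such rows, 47 were higher and 40 lower among 11549. Another 90.3% of those 11549 differed by less than 1.5-fold, and their median change was 0.08. The split depended on the scale. It was 61 higher against 77 lower on the deposited scale, and 59 against 84 once the median change was brought to 0. At a threshold of 1.5-fold, adopted after the values were seen, 521 rows were higher (4.49%) and 644 lower (5.55%). Over genes, as a description only, log2 values at 48 h and 96 h had a Pearson r of 0.977, beside 0.990 for 48 h with 72 h and 0.986 for 72 h with 96 h.

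**Figure D1:**
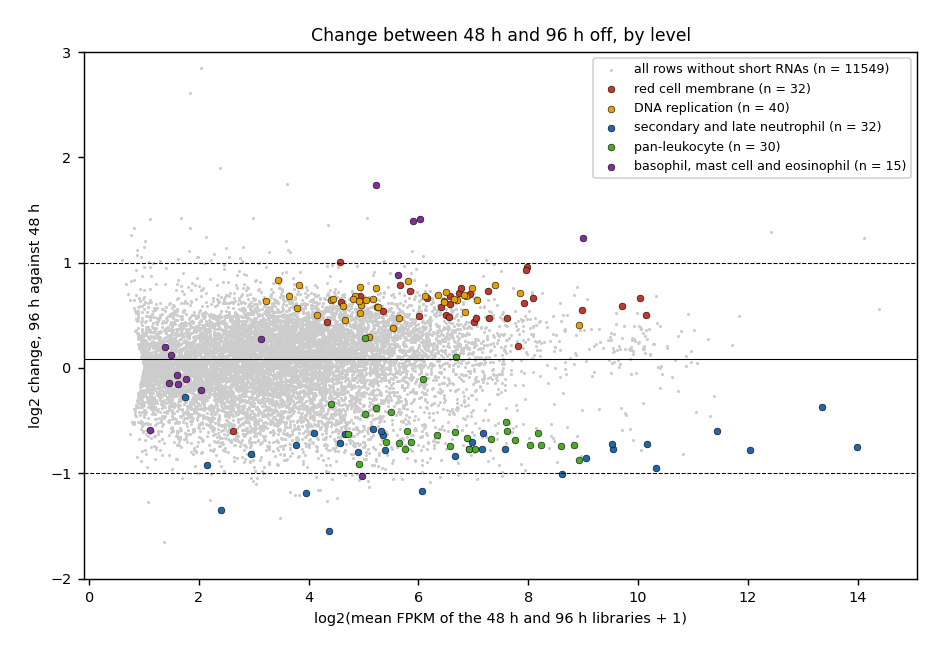
Log2 change at 96 h against 48 h (vertical axis) by mean log2 level (horizontal axis) for each row without short RNAs. Members of 5 gene lists are coloured, dashed lines mark 2-fold, the solid line marks the median of 0.08, and 2 alpha globin rows listed at 0 at 96 h lie below the axis. Most red cell membrane and DNA replication genes sit above the median line and most neutrophil and pan-leukocyte genes below it.

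Among the 12 genes with the largest increase, 5 encode granule proteins of eosinophils and related cells (Ear1, Ear6, Epx, Prg2 and Prg3) and 1 is the adult beta globin Hbb-b1. The others were Amd1, Btg3, Rmrp, Rprl3, the tachykinin Tac2 and 2410076I21Rik. Tac2 was at 10.5, 19.0 and 28.4 FPKM in the 3 off libraries, beside 0.859 FPKM with the oncogene on, so each later off library was higher than the one before. The antiproliferative gene Btg3 followed the same order at 1.21, 5.04 and 7.25 FPKM. Amd1 stood at 0.0019 FPKM at 48 h and 5.12 FPKM at 96 h, but it has near-identical copies among which reads may be divided. The 12 largest decreases held 3 stefin family genes of neutrophils (Stfa2l1, Stfa2 and BC100530), the neutrophil factor Cebpe, the macrophage lectin Clec10a and the lipid carriers Apoc2 and Pltp. They also held the mTOR inhibitor Ddit4, the interferon-induced Oasl2, the protease Asprv1, the troponin Tnni2 and Gm20571. Asprv1 was at 15.2 FPKM at 48 h, 15.7 FPKM at 72 h and 5.04 FPKM at 96 h, a change of -1.42. Tnni2, at 16.6, 10.97 and 6.76 FPKM, was lower at each step, and Gm20571, at 17.7, 10.4 and 7.07 FPKM, had the same order.

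**Figure D2:**
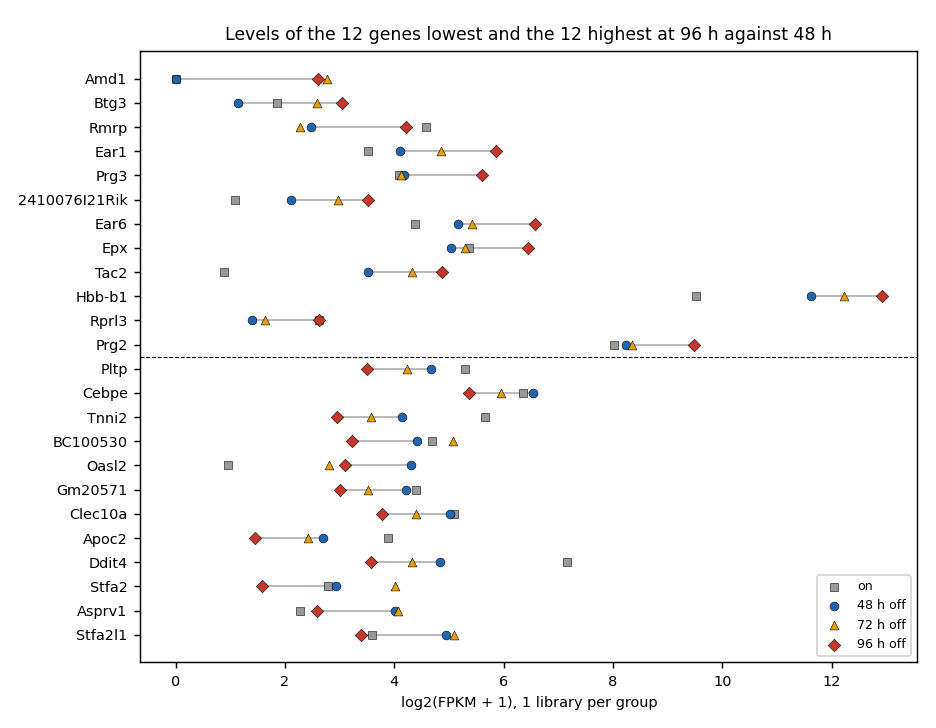
Levels as log2(FPKM + 1) of the 12 genes with the largest increase and the 12 with the largest decrease at 96 h against 48 h, with 1 point per library. The grey line joins 48 h and 96 h, and the 72 h point lies outside it for Amd1, Rmrp and Prg3 among the increases and for Oasl2, Asprv1 and the 3 stefin genes among the decreases.

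The 72 h library, which took no part in the contrast, showed how the 2 ends were joined. Of the 87 rows at least 2-fold apart outside short RNAs, 74 had a 72 h value between those of 48 h and 96 h, 9 were higher at 72 h than at either end and 4 lower. Over all 11549 rows, 53.2% had the 72 h value between. A row with well separated ends has more room for a middle value, so the larger share among the 87 rows is a description only. At 72 h the median share of the log2 change already present was 0.50 for the 47 higher rows and 0.38 for the 40 lower rows. Against 48 h, 158 rows were at least 1.5-fold higher at 72 h (1.36%) and 153 lower (1.32%). From 72 h to 96 h, 152 were higher (1.31%) and 196 lower (1.69%). These steps share the 72 h library, so an error in it moves them in opposite directions.

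**Figure D3:**
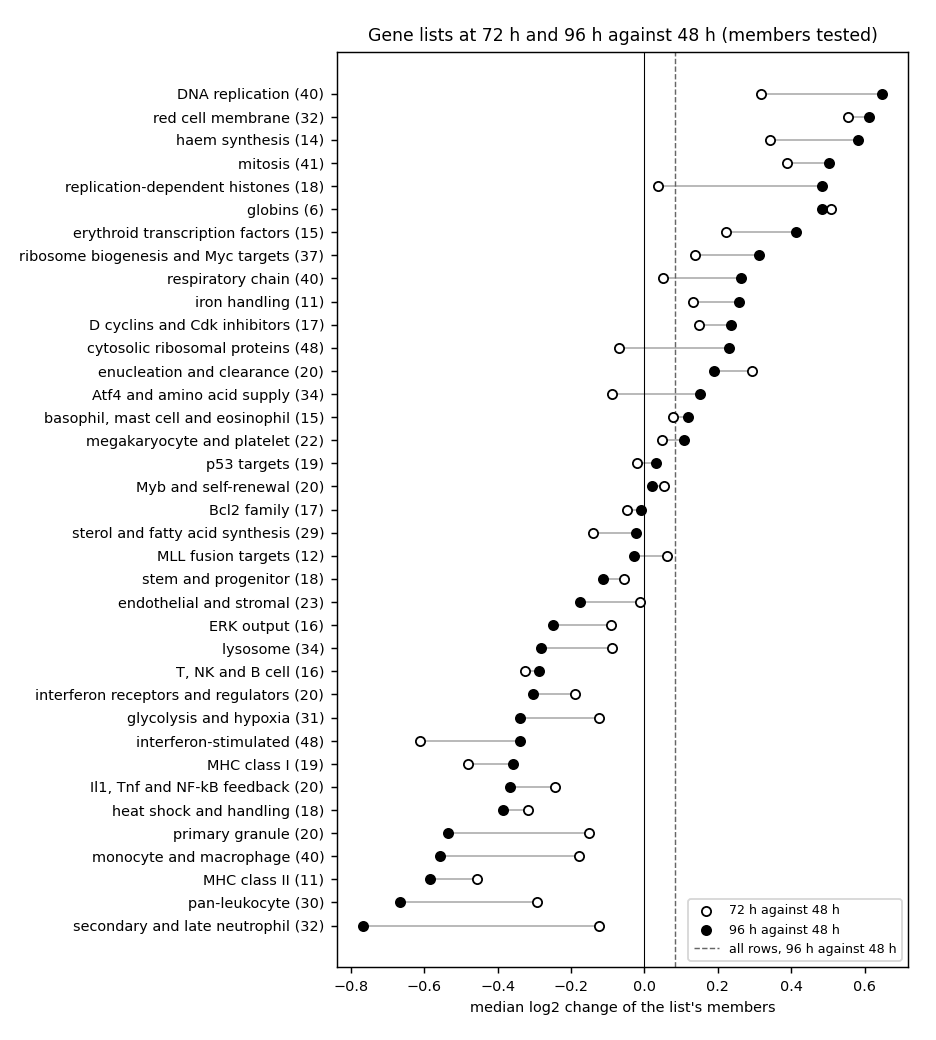
Median log2 change of each list with at least 5 members tested, at 72 h (open points) and 96 h (filled points) against 48 h, with the number of members tested in brackets. DNA replication lies at the top with 0.65 at 96 h and late neutrophil genes at the bottom with -0.77, and interferon-stimulated genes are lower at 72 h than at 96 h.

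Eosinophil granule genes made up a small group that was higher at 96 h. Eosinophils are granulocytes that store toxic basic proteins and ribonucleases. Prg2, the eosinophil major basic protein, was at 302 FPKM at 48 h, 323 FPKM at 72 h and 713 FPKM at 96 h, a log2 change of 1.24. Epx, eosinophil peroxidase, was at 31.9, 38.0 and 85.7 FPKM (1.40). Prg3, a relative of Prg2, was at 17.2, 16.4 and 47.8 FPKM (1.43). In all of these the 96 h library stood apart, and 48 h and 72 h lay close together. The eosinophil-associated ribonucleases are near-identical copies, and reads may be divided between them: Ear6 was at 34.7, 41.8 and 93.9 FPKM, Ear2 at 33.8, 33.5 and 63.1 FPKM and Ear1 at 16.3, 27.8 and 56.8 FPKM. With the oncogene on, Prg2 had been at 257 FPKM and Epx at 40.1 FPKM, near their 48 h and 72 h levels. Among the 15 tested members of the basophil, mast cell and eosinophil list, 4 passed 2-fold upwards, beside 0.638% of all rows, and 1 downwards, beside 0.491%. The list's median was 0.12, which became 1.24 over members reaching 5 FPKM and 0 with no minimum, and the basophil and mast cell members named next were not higher by 1.5-fold. Histidine decarboxylase, Hdc, was lower at each step (41.3, 28.6 and 19.8 FPKM), the basophil protease Mcpt8 stayed at 1.06 to 1.79 FPKM, and the mast cell carboxypeptidase Cpa3 at 1.61 to 2.11 FPKM. The eotaxin receptor Ccr3 was at 6.93, 7.37 and 8.60 FPKM.

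Red cell genes were already high at 48 h and at 96 h nearly all of them were higher again, most by less than 2-fold. Hbb-b1, Beta-s and Sphk1 passed 2-fold. Red cell precursors make globin and haem under the factors GATA1 and KLF1 and build a spectrin skeleton beneath their membrane. The adult beta globin Hbb-b1 went from 3167 FPKM at 48 h to 4818 FPKM at 72 h and 7748 FPKM at 96 h, a change of 1.29. Its neighbour Hbb-b2 was at 17459, 26172 and 25693 FPKM (0.56), so its 72 h and 96 h values were close. Beta-s, a further adult beta globin row named here after its values were seen, was at 10595, 19738 and 24842 FPKM (1.23). Since adult beta globin copies share sequence, their separate levels are uncertain. The embryonic Hbb-y was at 326, 489 and 463 FPKM. Both alpha globin rows were listed at 0 at 96 h, which can be a failed estimate, after 8821 FPKM (Hba-a1) and 511 FPKM (Hba-a2) at 48 h. Of 6 tested globins 1 was at least 2-fold higher, beside 0.638% of all rows. The 2 lower, beside 0.491%, were these alpha globins, so that count rests on the listed zeros. The median of 0.48 includes them and leaves out Beta-s, which was not on the list. The 4 members above 0 were Hbb-b1 (1.29), Hbb-b2 (0.56), Hbb-y (0.50) and Hbb-bh1 (0.46). The globins without the alpha rows held 6.74%, 10.5% and 11.9% of all FPKM outside short RNAs. That total still includes the alpha rows, which are 0 at 96 h, so the 96 h share comes out larger than on a like total.

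Of 14 haem synthesis genes 0 were past 2-fold, and 7 were at least 1.5-fold higher, beside 4.49% of all rows, with a median of 0.58. All 14 were above 0, beside 6961 of all 11602 rows, but Snx3, at 0.02, lay below the median of all rows, 0.08. Urod, a decarboxylase of the pathway, was at 205, 298 and 333 FPKM (0.70). Alas2, the erythroid rate-limiting enzyme, was at 418, 654 and 656 FPKM, with 72 h and 96 h alike. All 15 erythroid transcription factors were above 0 as well, with 2 past 1.5-fold, beside 4.49% of all rows, and a median of 0.41. Of these, Nfe2 (0.03) and Lyl1 (0.05) lay below the median of all rows, and so below 0 once that median is set to 0. Gfi1b was at 40.7, 48.5 and 69.3 FPKM (0.75), Gata1 at 63.1, 77.4 and 101 FPKM (0.67) and Klf1 at 130, 141 and 188 FPKM (0.53). Nfe2, which drives globin genes and platelet formation, was at 136, 158 and 139 FPKM, with 48 h and 96 h alike.

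The promoters of Alas2 and Klf1 are shown because these genes stand for the haem enzymes and for the factors above. Each holds a match to the letters of the GATA element, AGATAA or TGATAA, searched on both strands in the 250 bases before the RefSeq start. The sequences are RefSeq's, build GRCm38.p6, whereas the expression files used mm9. They are written 5′ to 3′ on the gene's strand with the match in capitals, and both matches are on the opposite strand and so read in reverse complement. Alas2 is chrX:150547167-150547416 (plus strand) and Klf1 is chr8:84901732-84901981 (plus strand).
Alas2: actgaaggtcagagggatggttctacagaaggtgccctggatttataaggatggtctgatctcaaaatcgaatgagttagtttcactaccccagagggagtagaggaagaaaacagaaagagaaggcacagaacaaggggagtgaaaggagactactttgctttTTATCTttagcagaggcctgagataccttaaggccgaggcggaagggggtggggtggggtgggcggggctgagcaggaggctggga
Klf1: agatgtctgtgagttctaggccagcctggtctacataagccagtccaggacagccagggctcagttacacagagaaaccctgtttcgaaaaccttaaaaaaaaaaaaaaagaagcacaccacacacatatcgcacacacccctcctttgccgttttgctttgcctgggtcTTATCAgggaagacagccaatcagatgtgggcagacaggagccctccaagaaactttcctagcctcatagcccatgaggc
Such a match was present in 16.6% of all 32851 promoters of this length. It was present in 3 of 13 promoters of the 11 haem genes with an entry (23.1%), 5 of 23 of the 13 factors (21.7%), 10 of 31 of the 23 membrane genes (32.3%) and 9 of 22 of the 20 basophil, mast cell and eosinophil genes (40.9%). For the 4 globin genes with an entry, of 7 on the list, it was present in 4 of 4 promoters. A match describes letters and not binding.

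Of 32 red cell membrane and related genes, 31 were above 0, 18 were at least 1.5-fold higher and 1 was lower, beside 4.49% and 5.55% of all rows, of which 6961 of 11602 were above 0. The median was 0.61 at 96 h and 0.55 at 72 h. Most of the difference was thus present at 72 h. Sphk1, a sphingosine kinase, was the member past 2-fold, beside 0.638% of all rows, at 14.7, 23.1 and 30.7 FPKM (1.01). The water channel Aqp1 was at 171, 249 and 332 FPKM (0.96) and the carbonic anhydrase Car1 at 170, 231 and 325 FPKM (0.93), both higher at 96 h than at 72 h. The anion exchanger Slc4a1, at 671, 1071 and 1010 FPKM, and alpha spectrin, Spna1, at 80.6, 144 and 132 FPKM, were highest at 72 h. Kel, a blood group protein, was at 80.3, 130 and 137 FPKM, and the peroxiredoxin Prdx2, the most abundant member, at 939, 1192 and 1330 FPKM. The glucose transporter Slc2a1, which other cells use too, was the lower member, at 6.39, 4.31 and 3.86 FPKM. Iron handling had a median of 0.26 over 11 genes, with 1 at least 1.5-fold higher, beside 4.49% of all rows. It was the iron importer Slc11a2, at 22.05, 30.5 and 35.3 FPKM. The transferrin receptor Tfrc was at 209, 288 and 290 FPKM and ferritin heavy chain Fth1 at 2241, 2319 and 2708 FPKM. Genes of late erythroblast clearance and chromatin had a median of 0.19 over 20. Past 1.5-fold, 1 was higher and 1 lower, near the 4.49% and 5.55% of all rows. Of these, Fbxo7 was at 28.2, 36.3 and 46.7 FPKM, and the polyubiquitin Ubb, the most abundant, at 518, 581 and 544 FPKM.

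**Figure D4:**
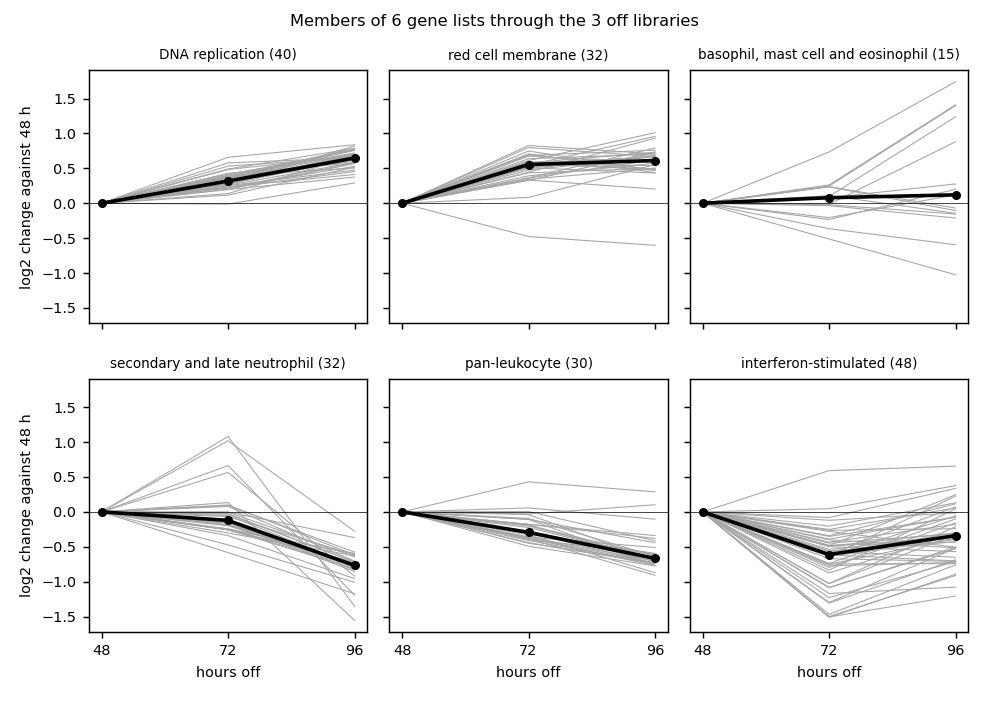
Log2 change against 48 h at 72 h and 96 h for each tested member (grey) of 6 lists, with the median in black. All members of the DNA replication list end above 0, all late neutrophil members end below 0, most of them with the larger step after 72 h, and most interferon-stimulated members are lowest at 72 h.

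DNA replication genes were higher without exception. All 40 were above 0 and 29 were at least 1.5-fold higher, beside 4.49% of all rows, although 0 were past 2-fold. Their median was 0.65 at 96 h and 0.32 at 72 h, and 39 of 40 had the 72 h value between the ends. The replicative helicase subunit Mcm2 was at 88.3, 107 and 142 FPKM, Mcm7 at 122, 159 and 211.5 FPKM, and the licensing factors Cdt1 and Cdc6 at 39.6, 47.7 and 70.7 and at 27.0, 34.8 and 43.0 FPKM. Cyclin E1, Ccne1, went from 52.3 to 65.0 and 84.7 FPKM, and the sliding clamp Pcna from 418 to 492 and 556 FPKM. The smallest change was that of Cdc45, at 29.7, 29.5 and 36.6 FPKM. Mitotic genes were all above 0 too, 41 of 41, beside 6961 of all 11602 rows, with a median of 0.50. Of these, 6 were at least 1.5-fold higher, beside 4.49% of all rows. More of their difference was present at 72 h, where the median was 0.39. Mki67, the proliferation marker Ki-67, was at 199, 314 and 270 FPKM and so was highest at 72 h. Topoisomerase Top2a was at 110, 144 and 148 FPKM, cyclin B1, Ccnb1, at 62.0, 85.2 and 92.1 FPKM and the ubiquitin enzyme Ube2c at 156, 210 and 265 FPKM.

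The D cyclins and Cdk inhibitors were divided, with a median of 0.24 over 17. Past 1.5-fold, 3 were higher and 2 lower, beside 4.49% and 5.55% of all rows. Cyclin D3, Ccnd3, used by red cell precursors, was at 272, 238 and 370 FPKM. Cyclin D1, Ccnd1, a target of ERK, was at 27.3, 16.5 and 15.3 FPKM, and the inhibitor Cdkn2a at 7.75, 5.88 and 4.66 FPKM. Cdkn1a (p21) was at 36.1, 31.4 and 32.4 FPKM. Ribosome biogenesis genes and Myc targets had a median of 0.31, with 32 of 37 above 0, beside 6961 of all 11602 rows. Past 1.5-fold were 0. Nop56 was at 65.1, 75.1 and 95.4 FPKM, nucleophosmin Npm1 at 416, 518 and 517 FPKM, and Myc itself at 27.0, 24.8 and 27.6 FPKM. Cytosolic ribosomal proteins had a median of 0.23 over 48 but at 72 h their median was -0.07. Of the 48, 33 were lowest at 72 h, beside 2156 of all 11602 rows. Rplp1, the most abundant by its mean of 48 h and 96 h, was at 1819, 1641 and 2340 FPKM. Rps15 was at 1855, 1498 and 1879 FPKM. Respiratory chain genes had a median of 0.26 over 40, with 36 above 0, beside 6961 of all 11602 rows. Past 1.5-fold higher was 1, beside 4.49% of all rows, Cox7a2, at 105, 121.5 and 163 FPKM. The ATP synthase subunit Atp5b was at 454, 513 and 584 FPKM.

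Late neutrophil genes were lower at 96 h, and most of the difference lay after 72 h. Mature neutrophils carry secondary and gelatinase granules and the calcium-binding proteins S100a8 and S100a9. All 32 tested members were below 0, 29 were at least 1.5-fold lower beside 5.55% of all rows, and 5 were at least 2-fold lower beside 0.491%. The median was -0.12 at 72 h and -0.77 at 96 h. From 72 h to 96 h, 20 members were at least 1.5-fold lower, beside 1.69% of all rows. S100a9 was at 20383, 17866 and 12145 FPKM and S100a8 at 11774, 11751 and 9122 FPKM. Lactoferrin, Ltf, went from 1694 to 1338 and 873 FPKM (-0.96), lipocalin 2, Lcn2, from 1421 to 1188 and 862 FPKM, and cathelicidin, Camp, from 3323 to 2783 and 2198 FPKM. The collagenase Mmp8 was at 156, 165 and 95.3 FPKM and gelatinase Mmp9 at 179, 158 and 105 FPKM. Both stayed above their levels with the oncogene on, 22.7 and 41.7 FPKM. Pglyrp1, a peptidoglycan recognition protein, was at 522, 376 and 259 FPKM (-1.01).

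Cebpe, the factor needed for late neutrophil maturation, was at 91.997, 61.1 and 40.3 FPKM (-1.17). The stefins, protease inhibitors with near-identical copies, were higher at 72 h than at either end: Stfa2l1 was at 29.9, 32.9 and 9.54 FPKM, BC100530 at 20.4, 32.9 and 8.36 FPKM and Stfa2 at 6.64, 15.2 and 1.996 FPKM. Of 8401 rows reaching 5 FPKM in an off library, 3 were at least 1.5-fold higher at 72 h than at both ends, and all 3 were stefins (Stfa1, Stfa2 and BC100530).

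Primary granule genes, made at the promyelocyte stage, were all below 0 (20 of 20, beside 4641 of all 11602 rows), with a median of -0.54. Of these, 9 were at least 1.5-fold lower, beside 5.55% of all rows, and 1 at least 2-fold lower, beside 0.491%. Members that had been far higher with the oncogene on were divided. Myeloperoxidase, Mpo, was at 134, 132 and 120 FPKM, neutrophil elastase, Elane, at 133, 114 and 104 FPKM, and cathepsin G, Ctsg, at 26.6, 32.5 and 26.4 FPKM, and these 3 differed by less than 1.5-fold. Plac8, at 679 FPKM with the oncogene on, was at 191, 138 and 119 FPKM (-0.68), and Cst7, a protease inhibitor at 51.6 FPKM with the oncogene on, at 7.47, 7.55 and 4.26 FPKM (-0.69). The protease Ctsc, at 77.9 FPKM with the oncogene on, was at 29.2, 26.9 and 18.3 FPKM (-0.65), so these 3 passed 1.5-fold. The lysozymes, shared with mature myeloid cells, were lower too, Lyz1 at 100.1, 71.7 and 46.7 FPKM (-1.08) and Lyz2 at 2306, 1930 and 1309 FPKM (-0.82). The haptoglobin gene Hp was at 231, 183 and 121 FPKM (-0.93).

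Genes shared by white cells had a median of -0.67 at 96 h and -0.29 at 72 h, with 28 of 30 below 0, beside 4641 of all 11602 rows, and 22 at least 1.5-fold lower, beside 5.55%. The summed level of the list was 5175, 4202 and 3256 FPKM at 48 h, 72 h and 96 h, beside 7153 FPKM with the oncogene on. Arhgdib, the most abundant member, was at 626, 498 and 342 FPKM, the myeloid factor PU.1, Sfpi1, at 119, 87.0 and 70.6 FPKM and the integrin Itgal at 38.5, 29.2 and 20.0 FPKM. Their part in the lower values of the myeloid lists was not tested. Monocyte and macrophage genes had a median of -0.56, with 20 of 40 at least 1.5-fold lower, 2 at least 2-fold lower and 0 at least 1.5-fold higher, beside 5.55%, 0.491% and 4.49% of all rows. The chemokine Ccl9 was at 10.2, 8.01 and 4.23 FPKM (-1.10), the receptor Trem2 at 5.19, 4.80 and 2.07 FPKM (-1.01), Ccl6 at 52.2, 51.4 and 26.5 FPKM and the monocyte chemokine receptor Ccr2 at 23.7, 20.3 and 12.5 FPKM. Genes of resident macrophages that take up red cells, chosen here after their values were seen, were divided. Siglec1 (CD169) was past 1.5-fold lower, at 7.83, 4.63 and 4.82 FPKM (-0.60), and Cd163, a haemoglobin scavenger receptor, was at 7.16, 9.48 and 6.27 FPKM (-0.17). Spic was at 14.2, 16.0 and 18.7 FPKM, Vcam1 at 59.9, 72.7 and 63.6 FPKM and Cd5l at 17.4, 17.0 and 20.7 FPKM. Csf1r was at 52.5, 48.0 and 41.5 FPKM, the complement gene C1qa at 130, 103 and 106 FPKM and the pore protein Mpeg1 at 206, 185 and 143 FPKM. The lectin Clec10a, outside the list, was at 31.2, 20.1 and 12.7 FPKM (-1.24).

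Lysosomal genes had a median of -0.28, with 28 of 34 below 0, beside 4641 of all 11602 rows. Of the 34, 6 were at least 1.5-fold lower, beside 5.55% of all rows. Prosaposin, Psap, was at 1001, 774 and 663 FPKM and cathepsin Z, Ctsz, at 119.5, 88.3 and 74.3 FPKM. Inflammatory mediators and NF-kB feedback genes had a median of -0.37 over 20. Past 1.5-fold lower were 3, beside 5.55% of all rows, among them Il1b at 15.9, 13.3 and 9.17 FPKM. The inhibitor Nfkbia was at 45.4, 38.2 and 32.1 FPKM. Glycolysis and hypoxia genes had a median of -0.34 over 31. Of the 31, 9 were at least 1.5-fold lower and 2 higher, beside 5.55% and 4.49% of all rows. Pyruvate kinase, Pkm2, was at 325, 251 and 166 FPKM (-0.97), Pgam1 at 78.2, 68.6 and 46.8 FPKM and the myeloid hexokinase Hk3 at 59.0, 45.1 and 31.6 FPKM. Gapdh was at 573, 497 and 434 FPKM. The muscle and red cell phosphofructokinase Pfkm was higher, at 25.5, 31.0 and 41.2 FPKM (0.67). Ddit4 was at 27.7, 19.0 and 10.9 FPKM (-1.27), after 142 FPKM with the oncogene on.

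Interferon-stimulated genes were lower at 72 h than at either end. Interferons act through JAK kinases and STAT factors on promoters that hold a GAAA repeat, and induce antiviral proteins. At 72 h against 48 h, 26 of 48 members were at least 1.5-fold lower, beside 1.32% of all rows, and 1 was higher. From 72 h to 96 h, 13 were at least 1.5-fold higher, beside 1.31%, and 0 lower. The median was -0.61 at 72 h and -0.34 at 96 h. Of the 48, 40 had their lowest value at 72 h, beside 2156 of all 11602 rows. Among 8401 rows reaching 5 FPKM, 18 were at least 1.5-fold lower at 72 h than at both ends, and 10 of the 18 were on this list, against 43 of the 8401. The ubiquitin-like Isg15, the most abundant member, was at 204 FPKM at 48 h, 99.5 FPKM at 72 h and 176 FPKM at 96 h. The regulator Irf7 was at 53.2, 25.6 and 42.3 FPKM, Ifit3 at 8.29, 2.76 and 4.77 FPKM, and Oas3 at 17.8, 6.64 and 12.1 FPKM. Thus a single library, that of 72 h, sets this shape. Without it, 12 members were at least 1.5-fold lower at 96 h than at 48 h and 1 higher, beside 5.55% and 4.49% of all rows. Oasl2 was at 18.9, 6.01 and 7.62 FPKM (-1.21), and the DNA sensor Zbp1 at 9.79, 3.80 and 4.12 FPKM (-1.08). Rsad2 (viperin) did not dip, at 107, 110 and 139 FPKM, and the exonuclease Isg20 was higher at each step, at 127, 192 and 201 FPKM.

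The promoters of Isg15 and Ifit3 are shown because both genes dipped at 72 h and both hold the letters of an interferon response element, searched on both strands as GAAA, any 2 bases and GAAA again. The sequences are RefSeq's 250 bases before the start, GRCm38.p6, 5′ to 3′ on the gene's strand, with matches on either strand in capitals. Isg15 is chr4:156200819-156201068 (minus strand) and holds 3 overlapping matches, and Ifit3 is chr19:34583279-34583528 (plus strand) with 2 matches on the opposite strand.
Isg15: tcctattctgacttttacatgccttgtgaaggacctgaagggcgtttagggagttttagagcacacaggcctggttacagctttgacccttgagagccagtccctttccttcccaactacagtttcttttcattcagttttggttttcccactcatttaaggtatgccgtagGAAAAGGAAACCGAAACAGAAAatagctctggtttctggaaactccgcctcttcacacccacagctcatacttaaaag
Ifit3: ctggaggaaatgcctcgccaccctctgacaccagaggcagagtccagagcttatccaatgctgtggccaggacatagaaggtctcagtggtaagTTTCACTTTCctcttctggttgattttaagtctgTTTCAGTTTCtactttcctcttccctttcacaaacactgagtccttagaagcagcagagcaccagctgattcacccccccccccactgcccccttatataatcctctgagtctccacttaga
These letters were present in 17 of 44 promoters of the 37 list members with an entry (38.6%), beside 978 of all 32851 promoters (2.98%), and in 3 of 16 promoters of the 15 MHC class I genes with an entry (18.8%).

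Interferon receptors and regulators had a median of -0.30 over 20. Of the 20, 19 were below 0, beside 4641 of all 11602 rows, and 1 was past 1.5-fold lower, beside 5.55%. Irf1 was at 26.9, 18.4 and 17.5 FPKM and Irf8, a myeloid factor, at 134, 103 and 95.2 FPKM. MHC class I genes were lower by 72 h, with a median of -0.48 there and of -0.36 at 96 h over 19 genes. Of the 19, 5 were at least 1.5-fold lower at 96 h, beside 5.55% of all rows. B2m, the shared light chain, was at 1016, 699 and 746 FPKM, H2-K1 at 210, 112.5 and 131 FPKM and H2-D1 at 578, 358 and 368 FPKM. H2-K1, H2-D1 and the H2-Q members have near-identical copies. MHC class II genes had a median of -0.46 at 72 h and -0.58 at 96 h over 11. All 11 were below 0 at 96 h, beside 4641 of all 11602 rows, and 5 were at least 1.5-fold lower, beside 5.55%. The invariant chain Cd74 was at 2948, 2154 and 2141 FPKM, H2-Ab1 at 1183, 746 and 734 FPKM and H2-DMa at 137, 81.1 and 72.5 FPKM. Most of the class II difference was thus present at 72 h. Markers of T, NK and B cells were low, with 16 of 30 tested, a median of -0.29 and a summed level of 70.8, 52.3 and 55.4 FPKM. Cd3d, the 1 member past 1.5-fold lower, beside 5.55% of all rows, was at 13.9, 11.3 and 7.42 FPKM. Cd3e and Cd3g, which form a complex with Cd3d in T cells, did not reach 1 FPKM at 48 h or 96 h. The killer cell protease Gzma was at 11.7, 6.19 and 11.2 FPKM, lowest at 72 h like the interferon-stimulated genes.

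Targets of MLL fusions and genes of self-renewal differed little between 48 h and 96 h. These bulk levels do not separate leukaemia cells from normal cells. Of 12 tested targets of MLL fusions, 0 were past 1.5-fold, and the median was -0.03. Several were under 5 FPKM, such as Pbx3 and Hoxa10, where the added 1 FPKM makes differences come out too small. The count of 0 rests on that scale. Hoxa9 was at 2.66, 2.26 and 2.69 FPKM, Meis1 at 5.81, 4.77 and 4.40 FPKM, Mef2c at 9.60, 9.95 and 8.29 FPKM and Cdk6 at 8.38, 10.8 and 7.85 FPKM. For Mef2c and Cdk6, levels with the oncogene on were 26.5 and 25.2 FPKM, above those of all 3 off libraries. Myb was at 17.3, 18.3 and 20.2 FPKM and Pbx3 at 2.88, 3.95 and 4.50 FPKM. Over 20 genes tied to Myb and self-renewal the median was 0.02, and with the all-gene median brought to 0 it was -0.06. On the same scale the 1 member past 1.5-fold lower, beside 5.55% of all rows, was the Polycomb protein Cbx8, at 5.81, 4.58 and 3.30 FPKM. Gfi1 was at 4.81, 5.55 and 3.05 FPKM and Bcl2 at 2.75, 3.08 and 2.04 FPKM, both highest at 72 h. Stem and progenitor genes had a median of -0.11 over 18. The ETS factor Fli1 (18.4, 16.6 and 11.9 FPKM) was the 1 past 1.5-fold lower, beside 5.55% of all rows. Kit was at 10.5, 10.7 and 10.5 FPKM and Cd34 at 4.05, 4.56 and 4.49 FPKM.

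Mouse Nras was at 16.5, 17.4 and 18.8 FPKM, a change of 0.17, and Mllt3 (AF9) at 8.78, 12.9 and 14.03 FPKM, a change of 0.62. The files do not separate the transgene from the endogenous gene, so these levels do not check the switch. Transcripts that follow ERK activity were slightly lower at 96 h. Their median was -0.25 over the 16 tested of 26, with 14 below 0, beside 4641 of all 11602 rows. Past 1.5-fold lower were 2, beside 5.55% of all rows, Ccnd1 and the ERK phosphatase Dusp6 (19.5, 18.8 and 12.3 FPKM). Egr1 was at 1.73, 1.62 and 1.67 FPKM, Fos at 1.72, 1.25 and 1.07 FPKM and Junb at 36.2, 25.9 and 27.1 FPKM.

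The Bcl2 family, p53, sterol and Atf4 lists had medians near that of all rows, 0.08. The Bcl2 family had a median of -0.01 over 17 with 0 past 1.5-fold. Mcl1 was at 117, 99.6 and 88.9 FPKM and Bcl2l1, which keeps red cell precursors alive, at 59.6, 80.2 and 70.6 FPKM. Genes switched on by p53 had a median of 0.03 over 19, which became -0.06 with the all-gene median brought to 0, and 0 were past 1.5-fold. Gadd45a was at 83.3, 99.1 and 89.6 FPKM. Sterol and fatty acid synthesis genes had a median of -0.02 over 29 with 0 past 1.5-fold. Of the 29, 16 were lowest at 72 h, beside 2156 of all 11602 rows. Acly was at 38.7, 37.4 and 34.9 FPKM, and Hmgcs1, a cholesterol synthesis enzyme, was listed at 0 in every library, which can be a failed estimate. Atf4 targets and amino acid supply genes had a median of 0.15 over 34. Past 1.5-fold, 1 was higher and 4 lower, beside 4.49% and 5.55% of all rows. The 4 lower were Ddit4 (-1.27), Atf3 (-0.86), Cebpb (-0.78) and Chac1 (-0.74). The glycine transporter Slc6a9, abundant in red cell precursors, was at 33.4, 49.6 and 51.7 FPKM, Asns at 77.0, 82.1 and 113 FPKM, Trib3 at 7.77, 5.44 and 8.08 FPKM and Atf4 at 133, 120 and 137 FPKM.

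Platelet genes differed little, with a median of 0.11 over 22 and 1 past 1.5-fold lower (Fli1), beside 5.55% of all rows. Ppbp was at 242, 260 and 302 FPKM. Among 23 vessel and stroma genes the median was -0.17. Of the 23, 6 were at least 1.5-fold lower and 0 higher, beside 5.55% and 4.49% of all rows. These 6 included the fibrous collagens, which were level until 72 h: Col1a1 was at 112, 111 and 54.0 FPKM (-1.04) and Col3a1 at 86.7, 98.3 and 45.3 FPKM (-0.92). Sparc was at 240, 205 and 146 FPKM. The stromal chemokine Cxcl12, at 76.7, 94.97 and 85.8 FPKM, did not show this step. Endothelial genes were divided. Cdh5, at 8.89, 8.98 and 7.76 FPKM, and Kdr, at 7.79, 6.25 and 6.96 FPKM, did not show it. Stab1, at 7.86, 7.41 and 5.17 FPKM, was lower after 72 h, by a log2 change of -0.45. Lyve1, at 1.48 FPKM at 48 h, was also lower after 72 h (-0.39). Against 48 h its change was -0.59, so it was among the 6 lower members. Eng was higher, at 17.4, 19.8 and 26.2 FPKM (0.56). The collagen and neutrophil steps thus fell between the same pair of libraries, 72 h and 96 h, as did the eosinophil increase.

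Rows that can reflect library make-up also differed between 48 h and 96 h. The ribosomal RNA row Rn45s, named after its values were seen, was at 989, 1116 and 1584 FPKM. The RNA component of RNase MRP, Rmrp, was at 4.56, 3.84 and 17.7 FPKM, and the RNase P RNA row Rprl3 at 1.62, 2.09 and 5.18 FPKM. Replication-dependent histone genes, whose RNA has no poly(A) tail, had a median of 0.48 over 18. Past 1.5-fold higher were 7, beside 4.49% of all rows. Of those 18, however, 8 were under 1 FPKM at 48 h and entered only through their 96 h value, and 2 only through their 48 h value. The 1 FPKM minimum itself thus favours higher values at 96 h in this list. Hist1h1c, the most abundant, was at 18.8, 22.7 and 24.3 FPKM. The DNA replication list had a median of 0.65, and a link between the 2 lists was not tested. Heat shock and handling genes had a median of -0.39 over 18, with 2 past 1.5-fold lower, beside 5.55% of all rows. Of these genes, Hspa8 was at 992, 740 and 736 FPKM. The part of these rows and lists in the differences above was not tested. Of 20 rows listed at exactly 0 at one end and at 20 FPKM or more at the other, 18 were short RNAs. Among them were Mir3064, Snord104, Mir677 and Snord87, and the rows other than short RNAs were the alpha globins.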

How the data were processed

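Bulk RNA was sequenced from 4 leukaemia libraries, 1 per group, with Qiagen extraction and Illumina library preparation (per the labels' protocols). For 23235 rows the values the authors deposited are FPKM; TopHat2 2.0.4, Cuffdiff and build mm9 come from the submitters' processing notes, and no source used here gives the annotation or the Cuffdiff version. Each deposited table pairs the on library with 1 off library and has its own scale. The on column is headed 0 h, a time the labels do not give for any library, and was taken as the library titled NRASG12V On; every on level and the common scale rest on this. Each was divided by the median ratio of its on column to the geometric mean of the on columns of the 3 tables (15825 rows above 0 in all), by factors of 1.04, 0.984 and 0.981 at 48 h, 72 h and 96 h; 99.94% of on values then agreed within 0.1%. Levels set across times rest on this step. A deposited table of the off times combined was not used.

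Changes used a pseudocount of 1 FPKM and rows with at least 1 FPKM at 48 h or 96 h (Python 3.11.15, pandas 2.3.3), and the code was tested on simulated data. The 38 gene lists matched 1001 of 1011 entries. Lists and comparison were chosen with earlier results of these data known. Named were the 12 largest increases and decreases among genes at 5 FPKM or more, without short RNAs and rows at 0, up to 3 members per list past 2-fold in each direction, the most abundant member of each list, a fixed set, and rows listed at 0 in 1 library and at 20 FPKM or more in the other. Further members were named after their values were seen, to show the range of each list. Alternatives are given in the closing section.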

Additional observations from a re-analysis of the deposited data

How the results depend on the processing

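The main limits are 1 library per time, a scale that rests on the on column, and unknown depth; elapsed time, doxycycline exposure, animal and library cannot be told apart. The main counts were 74 higher, 57 lower and 74 of 87 rows with the 72 h value between. A pseudocount of 0.1 FPKM gave 144, 141 and 199, and one of 5 FPKM gave 30, 27 and 18. Requiring 5 FPKM in either library left 48 higher, and leaving out short RNAs 47 higher. At 1.5-fold, a threshold added after seeing the data like the removal of short RNAs, the counts were 521, 644 and 1004. Setting the median to 0 gave 59 higher and 84 lower, values as deposited 61 and 77, and an equal FPKM sum outside globins and short RNAs 67 and 65. Of the 74 and 57 main calls, 59 and 57 were kept with the median set to 0. No list median of at least 0.1 in size changed sign under the 3 scalings; the medians of the Myb list (0.02) and the p53 list (0.03) became -0.05 and -0.04 with values as deposited. List medians shifted more with low values: 7 of 37 with the pseudocount of 5 FPKM (such as monocyte and macrophage to -0.38 and interferon-stimulated to -0.23), 2 of 37 with that of 0.1 FPKM, 4 of 37 with no minimum and 5 of 35 at 5 FPKM. That of ERK output ranged from -0.44 to -0.05. Of 134 named genes, 16 moved with the pseudocount of 5 FPKM. No paired analysis was possible because each time has 1 library, and for the same reason no library could be left out.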
